A study of Mus musculus with 6 samples.

Results

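The genes described here encode the steps of glycolysis and of the pentose phosphate pathway, with the carriers that bring glucose into the cell and take lactate out. The members are 33 gene symbols chosen by pathway step, with no measured value in the rule, although earlier results of these data were known when they were chosen. Pkm2 is an older symbol of Pkm, so they correspond to 32 of the 23366 gene rows of the count table, and 31 of those rows held counts and were tested. RNA sequencing was done on CD4+GFP+ regulatory T (Treg) cells sorted from the liver (3 libraries) and from the spleen (3 libraries) of Foxp3GFP knock-in mice aged 12 days. Mice of this genotype, whose Foxp3-expressing cells carry GFP, served for both tissues, and no treatment is named; Foxp3 is the defining transcription factor of Treg cells. The labels give no strain, sex or pooling of animals, and do not say which libraries share an animal, so the p-values measure the spread between these libraries, which may be technical in part.

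Glycolysis splits glucose into pyruvate in the cytosol, yielding ATP and NADH. Lactate dehydrogenase can then turn pyruvate into lactate and restore the NAD that the pathway needs. The pentose phosphate pathway branches off after the hexokinase step: its oxidative arm makes NADPH, and its non-oxidative arm exchanges sugar phosphates with glycolysis and supplies ribose for nucleotides. In T cells, activation and proliferation are known to go with more glucose uptake and glycolysis, and several steps are encoded by more than 1 gene, whose products (isozymes) differ in regulation.

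Counts assigned to genes numbered 8437055, 10887092 and 10951720 in liver, against 1199410, 11408960 and 11358446 in spleen. Spleen 1 was thus shallow, and a floor of 3 counts was 2.58 CPM there, in counts scaled to a common library total, and 0.256 to 0.361 CPM in the other libraries. Levels below are such CPM after TMM scaling, unless said to be per length. The 8 Treg and T cell markers, Foxp3, Il2ra, Ctla4, Ikzf2, Cd4 and the Cd3 chains, had counts in both tissues and summed to 4815 to 5019 CPM in liver and 4248 to 4878 CPM in spleen, with 2 higher and 1 lower. The 19 genes of G2 phase and mitosis, led by Mki67 and Top2a, summed to 2563 to 2837 CPM in liver and 929 to 1112 CPM in spleen, and 19 of 19 were higher in liver. S phase genes were higher in 7 of 12. Pcna and Mcm6 led them in CPM, but Pcna overlapped between the tissues and did not pass (edgeR adjusted p = 0.0770). NK and CD8 T cell markers, led by Nkg7 and Prf1, summed to 102 to 132 CPM in liver and 47.5 to 56.1 CPM in spleen, with 5 higher and 1 lower of 9 tested. Erythroid markers, led by Beta-s and Slc4a1, summed to 6.14 to 10.7 CPM in liver and 165 to 250 CPM in spleen, with 7 of 7 tested lower and the genes Hba-a1, Hba-a2, Hbb-b1 and Hbb-b2 listed at 0 in each library. Granulocyte markers, led by Ngp and Ltf, summed to 257 to 290 CPM in liver and 471 to 801 CPM in spleen (8 of 10 lower). Macrophage markers, led by Lyz2 and Cd68, summed to 73.4 to 83.3 CPM in liver and 119 to 189 CPM in spleen (7 of 8 lower). B cell markers, led by Cd79a and Cd79b, summed to 138 to 172 CPM in liver and 235 to 331 CPM in spleen (6 of 10 lower). The markers named are the most abundant of each list, and Cd68 and Cd79b overlapped and did not pass (edgeR adjusted p = 0.271 and 0.135). Hepatocyte markers, led by Trf and Alb, summed to 15.7 to 27.0 CPM in liver and 18.2 to 25.0 CPM in spleen, with 2 higher and 1 lower of 4 tested; Trf was lower in liver, and Alb was at 6.01, 2.20 and 7.32 CPM in liver and had 0 counts in each spleen library. The part of proliferation and of these other cells in the results below was not tested, and in bulk samples more cells of a type and more RNA per cell cannot be told apart.

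Among the members, transcripts of 10 of the 16 glycolytic enzyme genes tested were higher in liver Treg cells. None of the 7 pentose phosphate members passed the test, and the regulators Pfkfb3 and Pfkfb4 were lower in liver. Of 12 other glycolysis genes tested, which are not members, 0 were higher and 4 (33.3%) lower, as described below. Among the 31 members tested, 13 rose in liver, 2 fell and 16 missed the threshold of edgeR's quasi-likelihood test with an adjusted p under 0.05. Over all 11716 genes tested, 9.28% were higher and 6.90% lower by the same rule, and the members' share was 41.9% higher and 6.45% lower. The median log2 fold change, liver minus spleen, was 0.28 for the members and -0.01 for all genes tested. Every liver library was above every spleen library for 15 members, where 17.7% of all genes were, and every liver library was below for 3, where 15.2% were. Summed over the 17 members that encode enzymes from hexokinase to lactate dehydrogenase, the libraries held 6208 to 6616 CPM in liver and 3967 to 4540 CPM in spleen. The median log2 fold change of the 16 of these tested was 0.59, with 10 higher, 0 lower (at an unadjusted p under 0.05, 1 of the 13 that reached it, Pfkm, was lower in liver) and 6 not passing.

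**Figure D1:**
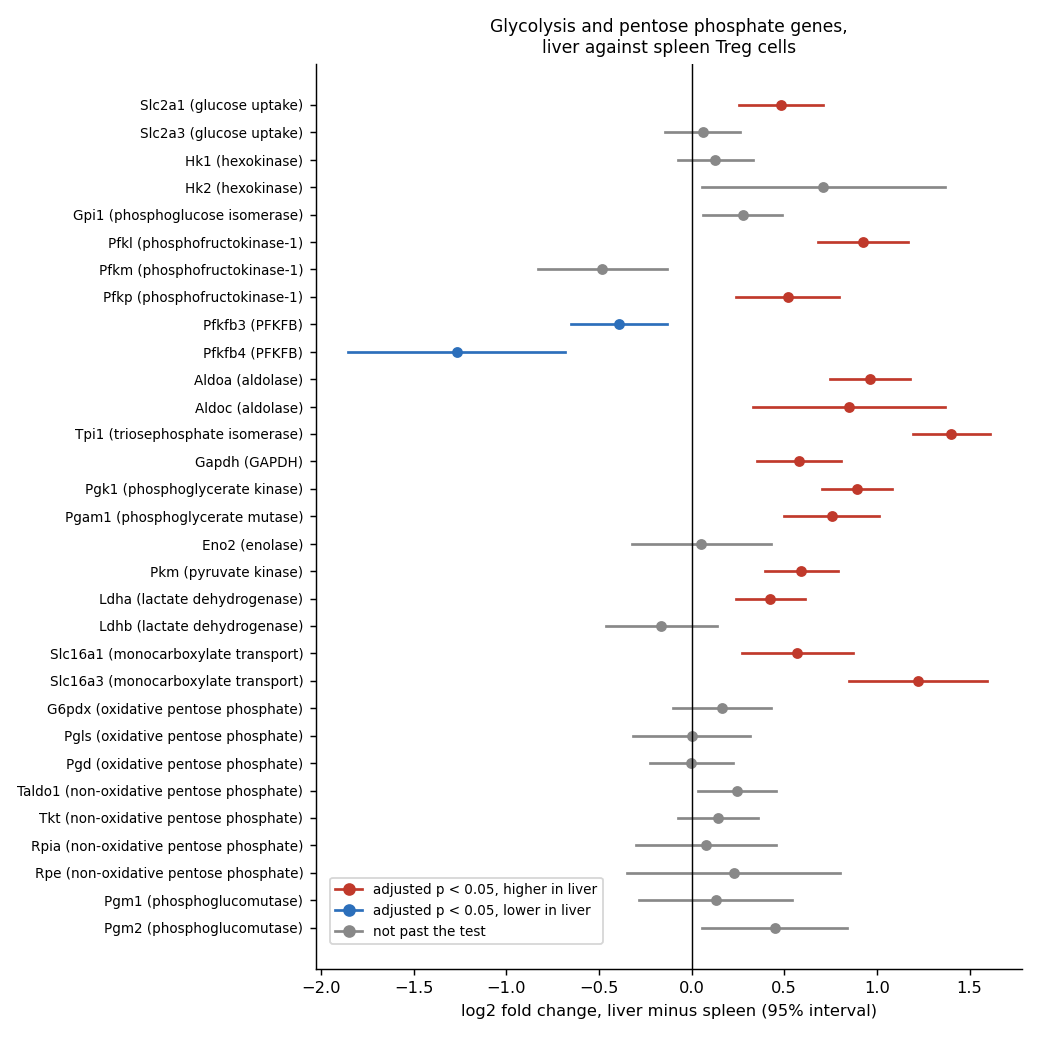
Log2 fold change (liver minus spleen, x axis) of the 31 members tested, from glucose uptake at the top to phosphoglucomutase at the bottom; points are edgeR estimates and bars their 95% intervals from 3 libraries per tissue. The intervals of Tpi1 and Slc16a3 lie farthest to the right and that of Pfkfb4 farthest to the left.

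The promoters of members that moved are shown because several genes of 1 pathway rose, and hypoxia-inducible factor and Myc are known to act on glycolytic genes through the letters ACGTG or GCGTG and CACGTG. The window was the 250 bases before the RefSeq start, on build GRCm38.p6, read on the gene's strand, and both strands were searched; CACGTG contains ACGTG, so its matches count for both. The 4 members with the largest rises among those called in each setting with 1 listed start, and the member with the largest fall, are given 5′ to 3′ with each match to ACGTG or GCGTG on either strand in capitals.
Tpi1 (chr6:124814159-124814408, minus strand): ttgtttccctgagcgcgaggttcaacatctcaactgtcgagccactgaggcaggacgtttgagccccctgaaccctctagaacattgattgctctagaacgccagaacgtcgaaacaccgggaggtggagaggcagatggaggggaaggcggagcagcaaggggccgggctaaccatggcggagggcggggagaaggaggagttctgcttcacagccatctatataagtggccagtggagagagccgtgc
Slc16a3 (chr11:120948817-120949066, plus strand): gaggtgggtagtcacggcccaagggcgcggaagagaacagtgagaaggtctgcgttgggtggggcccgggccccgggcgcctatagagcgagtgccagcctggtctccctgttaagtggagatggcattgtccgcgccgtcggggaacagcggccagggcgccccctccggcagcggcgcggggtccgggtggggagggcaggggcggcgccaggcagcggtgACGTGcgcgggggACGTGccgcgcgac
Pfkl (chr10:78009808-78010057, minus strand): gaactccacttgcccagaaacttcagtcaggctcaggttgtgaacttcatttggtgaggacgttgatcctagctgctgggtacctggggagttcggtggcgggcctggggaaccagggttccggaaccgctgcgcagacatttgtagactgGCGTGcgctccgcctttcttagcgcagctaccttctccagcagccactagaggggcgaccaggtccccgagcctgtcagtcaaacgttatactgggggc
Pgk1 (chrX:106186850-106187099, plus strand): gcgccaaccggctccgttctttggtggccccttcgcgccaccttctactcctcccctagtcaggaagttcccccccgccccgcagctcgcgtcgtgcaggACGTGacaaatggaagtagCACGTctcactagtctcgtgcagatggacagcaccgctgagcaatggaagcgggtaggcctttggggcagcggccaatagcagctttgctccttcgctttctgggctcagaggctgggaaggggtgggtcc
Pfkfb4 (chr9:108991652-108991901, plus strand): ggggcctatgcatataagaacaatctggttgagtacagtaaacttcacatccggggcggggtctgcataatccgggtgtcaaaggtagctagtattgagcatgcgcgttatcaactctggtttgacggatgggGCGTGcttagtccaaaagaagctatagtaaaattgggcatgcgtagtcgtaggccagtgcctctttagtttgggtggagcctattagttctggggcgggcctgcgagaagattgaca
Slc16a3 and Pgk1 held 2 matches each, Pfkl and Pfkfb4 1 each and Tpi1 0. Binding of either factor was not tested, and bases outside the window were not searched. Of the promoters listed for members higher in liver, 15 of 18 (from 13 genes) held a match, and 3 of 3 for members lower in liver, against 12 of 18 for members not past the test (13 genes), 56.0% of promoters of all genes tested and 38.6% of all listed promoters. Median GC content was 62.8% for members higher in liver, 60.4% for those lower, 56.8% for those not past the test, 59.6% for genes tested and 52.4% for all listed promoters. CACGTG was in 2 of 18 promoters of members higher in liver, in 1 Ldha and 1 Slc16a1 promoter, in 1 of 3 of those lower, in 1 of 18 of those not past the test, in 8.37% of promoters of genes tested and in 6.02% of all listed promoters. Promoters listed for the same gene may overlap, and a match is a description of letters.

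Glucose enters T cells mainly through the transporters GLUT1 and GLUT3. Slc2a1, which encodes GLUT1, was at 104, 114 and 101 CPM in liver and 81.8, 77.5 and 72.2 CPM in spleen. The tissues did not overlap, and the log2 fold change was 0.48 ± 0.11 (SE, n = 3 each, edgeR adjusted p = 0.00405). With all libraries thinned to the depth of spleen 1 this call was lost (adjusted p = 0.0974, the highest of the 14 other settings, which began at 0.000211). Slc2a3, which encodes GLUT3, was at 194, 174 and 175 CPM in liver and 157, 184 and 174 CPM in spleen. Its libraries overlapped and it did not pass (0.06, 95% interval -0.14 to 0.26, edgeR adjusted p = 0.741). Per kilobase (kb) of transcript, GLUT3 messages were more abundant than GLUT1 messages, at 45.7 ± 2.88 against 32.7 ± 2.03 CPM per kb in liver and 43.3 ± 3.52 against 23.7 ± 1.47 CPM per kb in spleen (SD, n = 3 each).

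Hexokinase traps glucose as glucose-6-phosphate. Hk1, the constitutive isozyme, was at 238, 233 and 226 CPM in liver and 187, 214 and 229 CPM in spleen, with overlap between the tissues (0.13, 95% interval -0.07 to 0.33, edgeR adjusted p = 0.412). Hk2, the isozyme that growth signals and hypoxia are known to induce, was scarce, at 10.3, 17.9 and 8.71 CPM in liver and 4.30, 9.17 and 6.92 CPM in spleen. Liver 2 was the highest of the Hk2 values, liver 3 was below spleen 2, and spleen 1 rested on 5 counts (0.71, 95% interval 0.06 to 1.37, edgeR adjusted p = 0.139). Hk2 made up 3.46% ± 1.31 of the Hk1 and Hk2 sum per length in liver and 2.13% ± 0.650 in spleen (SD, n = 3 each). Gpi1, which turns glucose-6-phosphate into fructose-6-phosphate, was at 678, 662 and 624 CPM in liver and 613, 527 and 491 CPM in spleen. Its groups did not overlap, but it missed the threshold (0.28, 95% interval 0.06 to 0.49, edgeR adjusted p = 0.0728). Without the shallow library spleen 1, Gpi1 passed at 0.36 (adjusted p = 0.00772, in a range of 0.00300 to 0.331 over the settings).

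Phosphofructokinase-1 (PFK-1) commits the sugar to glycolysis, and its liver-type, platelet-type and muscle-type subunits are encoded by Pfkl, Pfkp and Pfkm. Pfkl was at 165, 173 and 169 CPM in liver and 69.7, 104 and 83.8 CPM in spleen, a log2 fold change of 0.92 ± 0.12 (SE, edgeR adjusted p = 1.95e-05). Pfkp was at 189, 205 and 179 CPM in liver and 88.7, 152 and 142 CPM in spleen (0.52 ± 0.13, edgeR adjusted p = 0.0110). The tissues did not overlap for either gene, and spleen 1 was the lowest library for both. Pfkp lost its call without liver 2 (adjusted p = 0.0593, the highest in a range that began at 9.75e-06). Pfkm had a negative estimate: it was at 25.6, 23.3 and 20.6 CPM in liver and 28.4, 33.5 and 32.9 CPM in spleen, below spleen in each liver library, and narrowly missed the threshold (-0.48, 95% interval -0.83 to -0.13, edgeR adjusted p = 0.0557). Without spleen 1 it passed (-0.52, adjusted p = 0.0265, in a range of 0.0125 to 0.247 over the settings).

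The PFKFB enzymes make and break fructose-2,6-bisphosphate, the activator of PFK-1, and of their 4 genes tested Pfkfb3 and Pfkfb4, the members, were lower in liver. Pfkfb3, the isozyme known for strong kinase activity, was at 58.8, 56.9 and 49.8 CPM in liver and 67.1, 71.0 and 76.8 CPM in spleen (-0.39 ± 0.12, edgeR adjusted p = 0.0359). Pfkfb4 was at 7.33, 5.69 and 4.72 CPM in liver and 13.8, 11.3 and 17.2 CPM in spleen (-1.27 ± 0.28, edgeR adjusted p = 0.00371). Neither gene overlapped between the tissues. Pfkfb2 (-0.35 ± 0.18, edgeR adjusted p = 0.206) and Pfkfb1 (-0.17 ± 0.45, edgeR adjusted p = 0.857), which are not members, overlapped and did not pass. Pfkfb3 lost its call when any of liver 1, liver 2, liver 3, spleen 2 or spleen 3 was left out (adjusted p = 0.0527 to 0.206) and with equal depth (adjusted p = 0.295, in a range from 0.00886), and Pfkfb4 lost it without spleen 3 (adjusted p = 0.0599, in a range from 0.000214). Thus the count of members lower in liver was 0 without spleen 3, 1 without liver 1, liver 2, liver 3 or spleen 2, and 3 without spleen 1.

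Aldolase splits fructose-1,6-bisphosphate into triose phosphates. Aldoa, the main isozyme of most tissues, was at 597, 509 and 516 CPM in liver and 302, 280 and 255 CPM in spleen, without overlap (0.96 ± 0.10, edgeR adjusted p = 3.37e-06). Aldoc, the brain-type isozyme, was at 14.7, 16.3 and 12.1 CPM in liver and 6.89, 9.17 and 7.09 CPM in spleen (0.85 ± 0.25, edgeR adjusted p = 0.0241). That call was lost without liver 1, liver 2 or spleen 3 (adjusted p = 0.0675 to 0.131) and with equal depth (adjusted p = 0.199, in a range from 0.00458).

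Tpi1, which interconverts the triose phosphates, was the member with the largest log2 fold change. It was at 332, 332 and 304 CPM in liver and 127, 131 and 110 CPM in spleen, so the lowest liver library exceeded the highest spleen library more than any spread within a tissue. The change was 1.40 ± 0.10 (SE, edgeR adjusted p = 5.08e-08), or 2.64-fold. Gapdh, which oxidises glyceraldehyde-3-phosphate and is often used as a loading control, was at 1471, 1373 and 1360 CPM in liver and 1103, 904 and 819 CPM in spleen (0.58 ± 0.11, edgeR adjusted p = 0.000878). Pgk1, which makes ATP from 1,3-bisphosphoglycerate, was at 351, 353 and 355 CPM in liver and 195, 194 and 183 CPM in spleen (0.89 ± 0.09, edgeR adjusted p = 1.66e-06). Pgam1, which moves the phosphate of 3-phosphoglycerate, was at 169, 178 and 135 CPM in liver and 115, 89.8 and 89.8 CPM in spleen (0.75 ± 0.12, edgeR adjusted p = 0.000271). For each of these 4 genes the liver libraries lay above the spleen libraries, and the calls held in each of the 14 other settings.

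Enolase could be described in part only. Eno3, the muscle-type isozyme, which is not a member, was lower in liver (-1.31 ± 0.13, edgeR adjusted p = 1.37e-06) and is described below. Eno1, the main isozyme of most tissues, was listed at 0 counts in each of the 6 libraries, and Gm5506, given in RefSeq as Eno1b with Eno1 among its synonyms, was at 1.68, 2.02 and 1.39 CPM in liver and 1.72, 0.771 and 0.342 CPM in spleen, with overlap. Reads that aligned to more than 1 place, which are not counted for a gene, were 8.88% to 10.3% of the counts in a library's column, and their part in the Eno1 zeros was not tested. Eno2, the neuronal isozyme, was at 25.5, 21.1 and 22.4 CPM in liver and 23.2, 20.4 and 23.4 CPM in spleen, with full overlap (0.05, 95% interval -0.32 to 0.43, edgeR adjusted p = 0.886). The same reservation applies to Gapdh, Ldha, Pkm, Aldoa, Tpi1, Pgam1 and Pgk1, which have processed pseudogene copies in the mouse genome, so their levels are uncertain.

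Pkm encodes the M1 and M2 forms of pyruvate kinase by alternative splicing, which counts per gene cannot separate. It was at 1488, 1362 and 1419 CPM in liver and 1008, 968 and 861 CPM in spleen, without overlap (0.59 ± 0.09, edgeR adjusted p = 0.000211). Ldha, the lactate dehydrogenase subunit that favours lactate formation, was at 824, 806 and 811 CPM in liver and 626, 604 and 591 CPM in spleen (0.42 ± 0.09, edgeR adjusted p = 0.00246). The spread of Ldha within each tissue was small against the gap between them. Ldhb, the subunit of heart and other oxidative tissues, was at 38.4, 39.5 and 45.0 CPM in liver and 43.9, 50.4 and 42.4 CPM in spleen, with overlap (-0.16, 95% interval -0.46 to 0.14, edgeR adjusted p = 0.496).

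Lactate leaves through monocarboxylate transporters. Slc16a3, which encodes MCT4, the low-affinity exporter of glycolytic cells, was at 87.3, 107 and 76.9 CPM in liver and 54.2, 42.0 and 29.2 CPM in spleen. The log2 fold change was 1.22 ± 0.18 (SE, edgeR adjusted p = 9.32e-05), the second largest rise of the members. Slc16a1, which encodes MCT1, was at 49.9, 50.5 and 48.3 CPM in liver and 37.0, 35.6 and 29.7 CPM in spleen (0.57 ± 0.14, edgeR adjusted p = 0.00951). Neither gene overlapped between the tissues. Slc16a1 lost its call without spleen 3 (adjusted p = 0.107) and with equal depth (adjusted p = 0.131, in a range from 0.000787). Bsg, the chaperone that carries both transporters to the membrane, did not pass (0.19 ± 0.11, edgeR adjusted p = 0.271).

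**Figure D2:**
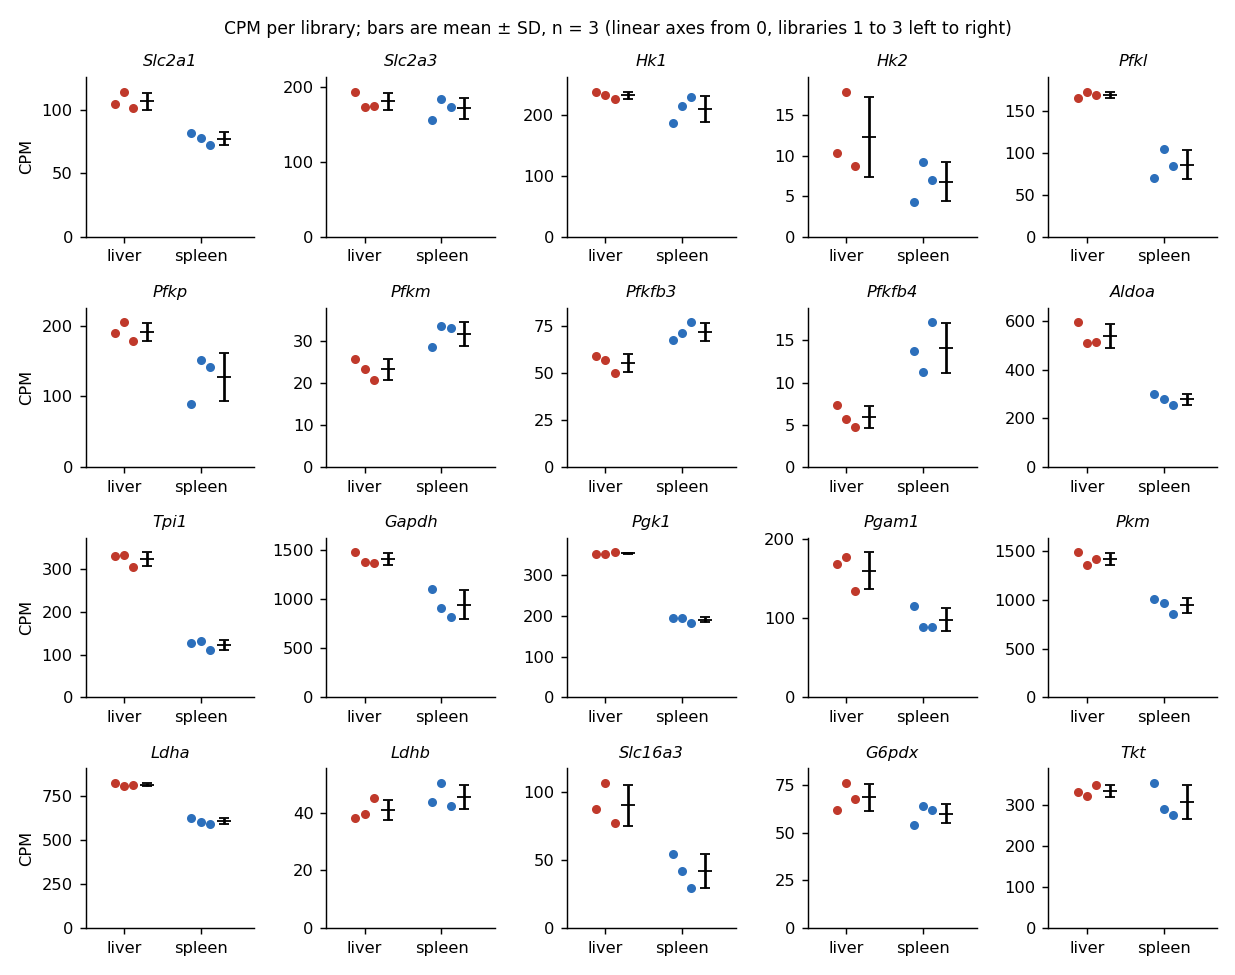
CPM (y axis, linear from 0) of 20 members in each of the 3 liver and 3 spleen libraries, with the mean and SD of each tissue beside the points. Tpi1, Pgk1 and Aldoa separate the tissues by more than their spread, the liver points of Pfkfb4 lie below its spleen points, and Slc2a3, Hk1, G6pdx and Tkt overlap.

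None of the 7 pentose phosphate genes passed edgeR's test in either direction (1 of 7, Taldo1, had an unadjusted p under 0.05). Since 16.2% of all genes tested passed, a count of 0 in so short a list is near the background. Under each of the 14 other settings, DESeq2 and limma-voom among them, none passed, the lowest adjusted p being 0.0730 for Tkt. Together they summed to 822 to 926 CPM in liver and 739 to 883 CPM in spleen. In the oxidative arm, G6pdx, the rate-limiting dehydrogenase, was at 61.8, 76.1 and 67.5 CPM in liver and 54.2, 63.8 and 62.0 CPM in spleen (0.16, 95% interval -0.10 to 0.43, edgeR adjusted p = 0.429). Pgd, which releases the second NADPH, had a 95% interval of -0.23 to 0.22, and Pgls, the lactonase between them, of -0.32 to 0.32. In the non-oxidative arm, Taldo1 (transaldolase) was at 180, 179 and 212 CPM in liver and 164, 169 and 150 CPM in spleen, without overlap (0.24, 95% interval 0.03 to 0.46, edgeR adjusted p = 0.115). Tkt (transketolase), the most abundant of the arm in CPM, was at 332, 323 and 350 CPM in liver and 355, 290 and 276 CPM in spleen, where spleen 1 was the highest of the 6 libraries (0.14, 95% interval -0.08 to 0.36, edgeR adjusted p = 0.404). Rpia and Rpe, which convert ribulose-5-phosphate, had intervals of -0.30 to 0.46 and -0.35 to 0.80. Rpe was at 5.16 CPM, from 6 counts, in spleen 1 and at 22.4 to 32.1 CPM in the other 5 libraries. For Pgls and Rpia, spleen 1 was the highest library and the mean over libraries was lower in liver, with 77.1 CPM for Pgls and 55.8 CPM for Rpia in liver, against 81.5 CPM for Pgls and 57.5 CPM for Rpia in spleen, while the fitted changes were slightly positive, at 0.00 and 0.08.

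Phosphoglucomutase links glucose-6-phosphate with glucose-1-phosphate. The symbols Pgm1 and Pgm2 are each a synonym of the other gene in RefSeq, so which of these genes a row holds was not settled, and no per-length value is given. The row Pgm1 was at 22.5, 26.1 and 27.0 CPM in liver and 13.8, 27.0 and 23.0 CPM in spleen (0.13, 95% interval -0.28 to 0.54). The row Pgm2 was at 69.3, 72.1 and 57.9 CPM in liver and 78.3, 44.6 and 39.0 CPM in spleen, with spleen 1 the highest of the 6 libraries (0.45, 95% interval 0.06 to 0.84, edgeR adjusted p = 0.120). Without spleen 1, Pgm2 passed at 0.67 (adjusted p = 0.00224, in a range of 0.000393 to 0.518 over the settings).

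Shares of a gene among the members of its family were computed per length of transcript, and 9 shares were compared by an exact permutation test, two-sided, which with 3 against 3 libraries cannot go below p = 0.1, so that no share could pass a threshold of 0.05. Pfkl made up 45.5% ± 1.54 of PFK-1 transcripts in liver and 35.5% ± 2.37 in spleen, and Pfkm 8.25% ± 0.820 in liver and 17.6% ± 2.31 in spleen (SD, n = 3 each, exact permutation p = 0.1 for both, Benjamini-Hochberg adjusted 0.15). Pfkp, near 46.2% ± 1.24 in liver and 46.9% ± 3.83 in spleen, overlapped between the tissues. Ldhb was 6.08% ± 0.524 of lactate dehydrogenase transcripts in liver and 8.80% ± 0.767 in spleen. Slc16a3 was 76.9% ± 2.52 of the Slc16a1 and Slc16a3 sum in liver and 68.8% ± 4.26 in spleen, and Slc2a1 was 41.7% ± 2.47 of the Slc2a1 and Slc2a3 sum in liver and 35.4% ± 2.96 in spleen. Pfkfb4 was 12.4% ± 1.62 of the PFKFB pair in liver and 20.6% ± 2.80 in spleen. Liver and spleen values were separate for these 6 shares (Slc2a1, Pfkl, Pfkm, Pfkfb4, Ldhb and Slc16a3), each at the smallest p the design allows, whereas those of Hk2, Pfkp and Aldoc overlapped (exact permutation p = 0.2, 0.8 and 0.9). Shares of the same family depend on each other, so those of Pfkl and Pfkm are not independent results.

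**Figure D3:**
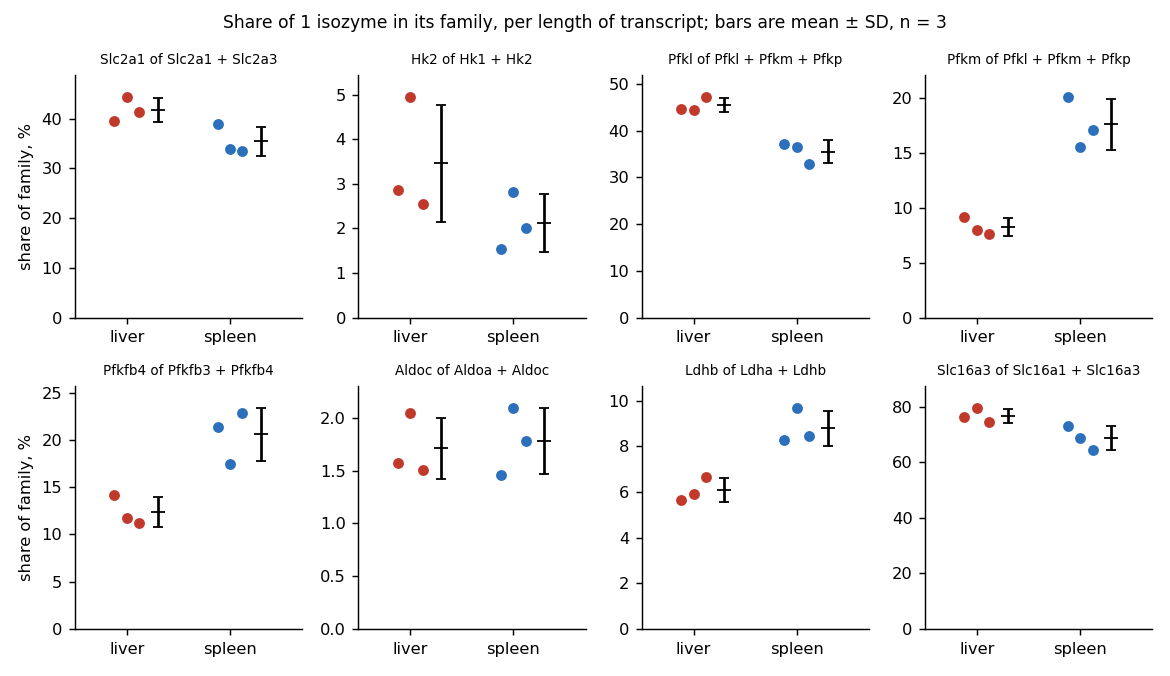
Share of 1 isozyme in its family (y axis, percent, per length of transcript, linear from 0) in each of 3 liver and 3 spleen libraries, with mean and SD. The Pfkm share is 8.25% in liver and 17.6% in spleen, and the Hk2 and Aldoc shares overlap between the tissues.

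Levels were summed per length over the members of a step. Isozymes that are not members, such as Hk3, Pfkfb1, Pfkfb2, Gapdhs, Pgam2 and Pklr, are thus left out. Pgam2, which did not pass (edgeR adjusted p = 0.429), averaged 7.84 CPM in liver and 10.2 CPM in spleen, against 161 and 98.3 CPM for Pgam1. GAPDH was the most abundant step, at 1041 ± 45.0 CPM per kb in liver and 700 ± 108 CPM per kb in spleen. Pyruvate kinase (585 ± 25.9 in liver, 389 ± 31.2 in spleen) and lactate dehydrogenase (517 ± 5.14 in liver, 397 ± 11.2 in spleen) followed in CPM per kb, and in spleen these neighbours did not differ beyond their spread. Of the glycolytic steps, aldolase was next at 377 ± 33.5 CPM per kb in liver and 194 ± 16.3 in spleen, where it lay within the spread of phosphoglucose isomerase (189 ± 21.7). Triosephosphate isomerase was at 201 ± 10.1 CPM per kb in liver, level with phosphoglycerate kinase at 193 ± 1.18, while in spleen it was at 76.4 ± 6.92 against 105 ± 3.55 for phosphoglycerate kinase. Tpi1 ranked 6 of the 30 members with a length in liver and 10 in spleen. PFK-1 (99.6 ± 4.20 in liver, 65.0 ± 13.5 in spleen) and hexokinase (64.2 ± 1.96 in liver, 57.3 ± 5.99 in spleen) had, with phosphoglycerate mutase (90.5 ± 12.9 in liver, 55.4 ± 8.30 in spleen), lower means than the other enzyme steps of glycolysis named here. In spleen, the libraries of PFK-1 overlapped those of triosephosphate isomerase. Enolase, with Eno1 listed at 0, is left out. The ratio of liver to spleen means was highest for triosephosphate isomerase, at 2.63, then 1.94 for both aldolase and the lactate transporters and 1.85 for phosphoglycerate kinase, and was 1.12 for hexokinase, 0.983 for the oxidative arm and 0.698 for the Pfkfb3 and Pfkfb4 pair.

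**Figure D4:**
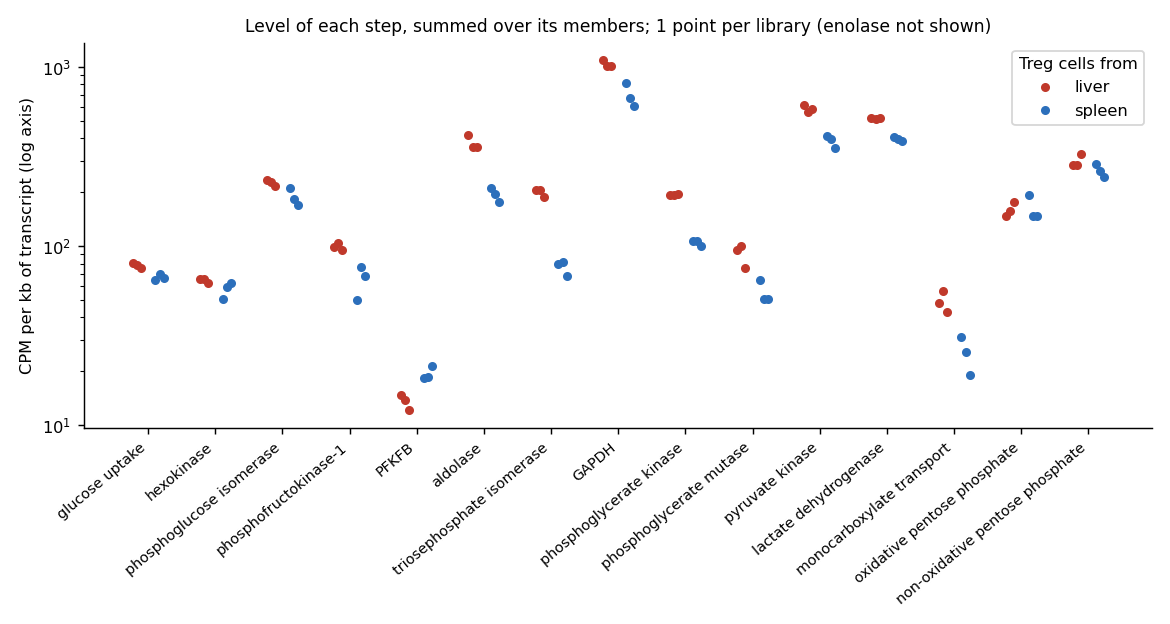
Level of each step in CPM per kb of transcript (log y axis), summed over its members, with 1 point for each liver and spleen library; enolase is left out because Eno1 was listed at 0. From aldolase to the lactate transporters the liver points lie above the spleen points, and at the pentose phosphate arms they overlap.

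Other genes of these pathways came from lists of isozymes, side branches, NADH shuttles and mitochondrial pyruvate entry. Of the 47 of these tested, 3 rose in liver, 7 fell and 37 missed the threshold, or 6.38% higher and 14.9% lower, against 9.28% and 6.90% of all genes tested. The 12 other glycolysis genes tested among them had 0 higher and 4 lower (33.3%), with a median log2 fold change of -0.35. No test was made of these shares. Eno3, the muscle-type enolase, was at 40.6, 39.4 and 34.5 CPM in liver and 107, 95.3 and 86.2 CPM in spleen (-1.31 ± 0.13, edgeR adjusted p = 1.37e-06), without overlap. Hk3, the hexokinase of myeloid cells, was at 3.01, 2.93 and 2.87 CPM in liver and 6.89, 5.998 and 6.58 CPM in spleen (edgeR adjusted p = 0.0409), in the same direction as the granulocyte and macrophage marker sums. Pklr, the pyruvate kinase of red cells and hepatocytes, was at 0, 0.550 and 0 CPM in liver and 5.16, 8.83 and 7.95 CPM in spleen (edgeR adjusted p = 3.65e-05). The erythroid marker sums, at 6.14 to 10.7 CPM in liver and 165 to 250 CPM in spleen, were lower in liver too. The part of other cells in the Hk3 and Pklr values was not tested. Adpgk, an ADP-dependent glucokinase, was lower in liver by a smaller step (-0.37 ± 0.12, edgeR adjusted p = 0.0346).

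At the exit to the mitochondrion, 1 of 13 genes tested passed, where 16.2% of all genes did: Pdha1, a subunit of pyruvate dehydrogenase, was at 101, 109 and 109 CPM in liver and 160, 132 and 124 CPM in spleen (-0.35 ± 0.11, edgeR adjusted p = 0.0335). Pdk1, a kinase that switches this enzyme off, was above spleen in each liver library but did not pass (0.26 ± 0.11, edgeR adjusted p = 0.116). Among genes of the shuttles that carry glycolytic NADH, Gpd1l, related to cytosolic glycerol-3-phosphate dehydrogenase, was at 178, 186 and 186 CPM in liver and 87.8, 106 and 114 CPM in spleen (0.80 ± 0.10, edgeR adjusted p = 1.95e-05). Mdh1, the cytosolic malate dehydrogenase, was also higher (0.44 ± 0.12, edgeR adjusted p = 0.0149). The row Gpd2, the symbol of the mitochondrial glycerol-3-phosphate dehydrogenase, was lower (-0.74 ± 0.22, edgeR adjusted p = 0.0251). That symbol is also a RefSeq synonym of another gene of the lists, so which gene the row holds was not settled. Around the pentose phosphate pathway, Pgm2l1, a glucose-1,6-bisphosphate synthase, was higher (0.70 ± 0.19, edgeR adjusted p = 0.0185) and Prps1l3, a copy of a phosphoribosyl pyrophosphate synthetase gene whose reads may be shared with Prps1, was lower (-0.42 ± 0.13, edgeR adjusted p = 0.0314). Neither Prps1 (0.05 ± 0.15, edgeR adjusted p = 0.876) nor Prps2 (-0.19 ± 0.15, edgeR adjusted p = 0.463) passed.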

How the data were processed

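RNA of sorted Treg cells was sequenced in 3 liver and 3 spleen libraries, numbered in accession order. The authors deposited raw read counts per gene symbol, with no normalization in the table. The tools HISAT2 2.1 and HTSeq 0.11 and the genome build mm9 are named in the submitters' processing notes; no source used here states the annotation or strand setting, so reads of antisense or overlapping genes may be mixed. The 5 HTSeq summary rows, 25.5% to 29.0% of a column, were left out.

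Counts were filtered with filterByExpr, scaled by TMM and tested on all 11716 genes kept with edgeR 4.0.16 (quasi-likelihood F test, liver minus spleen, Benjamini-Hochberg adjustment, threshold 0.05) in R 4.3.3. SE is implied by the F statistic. Other settings used DESeq2 1.42.0 and limma 3.58.1. Lengths are the median of principal GENCODE M21 transcripts and promoters come from RefSeq GRCm38.p6, a later build used for names, lengths and sequences only. Within each tissue, every pair of libraries differed beyond sampling noise (chi-square over its degrees of freedom 4.56 or more). Members and lists were chosen with earlier results of these data known. Each member is accounted for, with values per library for those past the test and their isozymes; of the other pathway lists the genes past the test are named, and others named were chosen after their values were seen.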

Additional observations from a re-analysis of the deposited data

How the results depend on the processing

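Over 14 other settings, 9 of the 15 members called were called in each of them: Pfkl, Aldoa, Tpi1, Gapdh, Pgk1, Pgam1, Pkm, Ldha and Slc16a3. The sign of 5 members that were not called changed with the setting: Slc2a3 (log2 fold change -0.14 to 0.12), Eno2 (-0.02 to 0.45), Pgls (-0.12 to 0.15), Pgd (-0.08 to 0.06) and Rpia (-0.39 to 0.27). With a library left out, the members higher in liver numbered 11 to 15 and those lower 0 to 3, the members' median log2 fold change was 0.24 to 0.36, and over all genes 722 to 1245 were higher and 486 to 989 lower, the lowest counts being those without spleen 2. With DESeq2's Wald test the members' median was 0.38. With limma-voom 1521 genes were higher and 1243 lower in liver, and with upper-quartile scaling 954 were higher and 1014 lower, so that the balance over all genes turned while 13 members were higher and 3 lower. Thinned to the depth of spleen 1, all genes gave 616 higher and 447 lower of 9246, with 10 members higher and 1 lower, Pfkfb4, and a members' median of 0.40. The Pfkm share difference, -9.33 points, was -7.12 points from raw counts, and that of Pfkfb4, -8.23 points, was -13.9 points at equal depth. The floors in CPM reflect counting error alone. No paired analysis was possible because the labels give the libraries of the tissues no shared numbers. The use of median in place of longest transcripts was chosen after seeing the data. With the longest, no liver-minus-spleen difference of a share moved by more than the spread. The shares themselves were not compared, and they depend on this choice, as Slc16a3 has 2386 bases by the median and 4335 by the longest.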
